A study of Mus musculus with 4 samples.

Results

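The 36 genes described here encode proteins of mitosis and the spindle: the mitotic cyclins and their kinase, the mitotic kinases, kinetochore and checkpoint proteins, kinesins and other spindle proteins, chromosome proteins and regulators of mitotic exit. They were chosen by name, with earlier results of these data known. All 36 were found by gene symbol among the 27998 genes of the count table. The table came from the thymus of 3-week-old B6 mice and holds regulatory T (Treg) cells, a CD4 lineage that keeps other immune cells in check. The 4 samples were 1 each of IL2 o/o and IL2 wt/wt animals and of IL15 o/o and IL15 wt/wt animals, where o/o marks the knockout. All 4 samples also carry Rag2-Gfp, in which Rag2 regulatory sequence drives GFP so that recently formed T cells are green, and Foxp3-Thy1a, which puts Thy1.1 on cells that express Foxp3. The sort gate was CD4+CD8-Thy1.1+GFP+, the droplet kit counted the 3' ends of transcripts as unique molecular identifiers (UMIs), and the stated question was how IL-2 and IL-15 act in Treg development, selection and differentiation. The table held 8273 cells whose barcodes end in 1 of 4 suffixes, called libraries 1 to 4 below. No label says which sample a suffix stands for, so the knockouts could not be set against the wild types, and there is no replicate of any condition. How many animals gave each sample is not stated.

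Libraries 1 to 4 held 1609, 2452, 2037 and 2175 cells, at a median of 3857, 3640, 2501 and 3019 UMIs per cell and 7890384, 11274713, 5717732 and 8349421 UMIs in total. Between libraries 27 barcodes recurred. Levels are UMIs per 1000000 UMIs (CPM), and their 95% intervals are exact Poisson intervals. Intervals on shares of cells are exact Clopper-Pearson intervals. All intervals cover counting error only, and no p-value was computed because cells of 1 library are not replicates. The authors also deposited a table of normalized values for 7231 cells, which its name calls G1 cells, and 1042 cells are outside it.

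A dividing cell builds its mitotic apparatus late in the cycle. Transcription of these genes is known to begin in S phase, when cyclin A and topoisomerase II are needed, and to peak in G2 and mitosis, when cyclin B and Cdk1 start mitosis. Their promoters are known for a pair of elements, the cell cycle genes homology region (CHR), bound by the MuvB complex with B-MYB or, in resting cells, within the repressive DREAM complex, and CCAAT boxes, bound by NF-Y. In the thymus most division takes place at the double-negative stage and on entry to the double-positive stage, and selected CD4 cells divide little.

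Promoters of 29 of the 36 genes were found by symbol in RefSeq's set for GRCm38.p6, each a window of 300 bases with 250 before the gene start and 50 after it. They were searched on both strands for TTTGAA or TTCGAA as the CHR, for CCAAT, and for TTCGCGC or TTGGCGC as an E2F motif. The CHR letters were in 22 of the 29 windows (75.9%), against 19.2% of all 32851 windows. CCAAT was in 24 (82.8%), against 37.4% of all windows, and 17 windows (58.6%) held it at least 2 times, against 11.7%. CHR and CCAAT occurred together in 21 (72.4%), against 7.52%, and the E2F letters in 4 (13.8%), against 3.89%. In the 250 bases before the start alone, the CHR letters were in 14 windows (48.3%), against 17.1%. These matches describe letters and do not show that a factor binds. Stretches of 120 bases from 7 promoters are printed 5′ to 3′ on the gene's strand, with positions counted from the gene start. Capitals mark the searched letters, which read TTCAAA and ATTGG when the motif lies on the other strand. Cdc20 (chr4:118437353-118437472, minus strand, bases -129 to -10), Cdkn3 (chr14:46760421-46760540, plus strand, bases -120 to -1) and Depdc1a (chr3:159495313-159495432, plus strand, bases -120 to -1) stand late in the order described below. Ccnb2 (chr9:70421555-70421674, minus strand, bases -120 to -1) stands in its middle. Top2a (chr11:99024190-99024309, minus strand, bases -120 to -1) stands early in it. Cdk1 (chr10:69352939-69353058, minus strand, bases -146 to -27) has all 3 motifs, and Birc5 (chr11:117849117-117849236, plus strand, bases -120 to -1) has none of them anywhere in its window.
Cdc20: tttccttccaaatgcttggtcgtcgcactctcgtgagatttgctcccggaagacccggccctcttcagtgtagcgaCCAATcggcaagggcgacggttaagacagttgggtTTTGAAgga
Ccnb2: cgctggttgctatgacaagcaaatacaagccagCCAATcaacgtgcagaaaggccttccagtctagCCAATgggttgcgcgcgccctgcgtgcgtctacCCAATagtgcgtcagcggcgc
Cdkn3: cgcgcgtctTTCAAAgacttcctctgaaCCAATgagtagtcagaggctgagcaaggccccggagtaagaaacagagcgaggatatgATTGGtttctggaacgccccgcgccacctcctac
Depdc1a: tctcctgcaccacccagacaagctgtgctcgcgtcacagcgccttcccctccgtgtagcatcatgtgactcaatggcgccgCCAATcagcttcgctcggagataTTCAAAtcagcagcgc
Top2a: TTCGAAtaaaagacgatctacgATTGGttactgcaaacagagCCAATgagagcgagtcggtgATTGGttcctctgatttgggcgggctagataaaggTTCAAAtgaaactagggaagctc
Cdk1: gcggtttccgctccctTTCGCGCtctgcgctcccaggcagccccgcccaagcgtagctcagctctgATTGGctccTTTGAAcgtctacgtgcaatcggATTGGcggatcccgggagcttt
Birc5: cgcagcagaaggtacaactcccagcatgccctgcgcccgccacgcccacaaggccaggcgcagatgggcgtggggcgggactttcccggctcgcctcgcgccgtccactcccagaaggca

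The late genes Cdc20, Cdkn3 and Depdc1a and the early gene Top2a all held both CHR and CCAAT letters in these stretches. The Ccnb2 stretch has CCAAT 3 times, and its CHR letters lie elsewhere in its window. The letters therefore do not part the early from the late genes shown here. Windows of the 7 other genes were not analysed here.

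Summed over the 36 genes, the level was 3273 CPM (3233 to 3313) in library 1, 3716 CPM (3680 to 3752) in library 2, 705.5 CPM (683.9 to 727.6) in library 3 and 2930 CPM (2894 to 2967) in library 4. Library 3 was the low one, and libraries 1, 2 and 4 lay close together. At least 3 summed UMIs were found in 41.3% (38.9 to 43.7), 42.8% (40.8 to 44.8), 11.5% (10.1 to 13.0) and 33.1% (31.1 to 35.1) of the cells of libraries 1 to 4. After every cell was thinned to 1811 UMIs, which left out 52, 135, 415 and 224 shallower cells, these shares were 19.9%, 22.9%, 4.81% and 17.9%. The order of the libraries was the same with and without thinning. Cells with at least 10 summed UMIs numbered 213, 413, 20 and 223, or 13.2%, 16.8%, 0.982% and 10.2% of cells. Few cells therefore carried most of the signal: 86.8% of the 96222 member UMIs lay in the 869 cells with at least 10, and in library 3, 47.9% lay in 20 cells.

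Each of the 36 genes was lowest in library 3, and for each the library 3 interval lay below the intervals of the other 3 libraries. Of the 9279 genes with at least 100 UMIs, 38.3% were lowest in library 3, and 11.9% were so with intervals apart. All 34 members with at least 100 UMIs were among the last. The lowest of libraries 1, 2 and 4 exceeded library 3 by 2.09-fold (Tubb4b) to 37.7-fold (Sapcd2, with 1 UMI in library 3, where its interval reaches 0.974 CPM), with a median of 6.41-fold over the 35 genes with a UMI there. Over libraries 1, 2 and 4 the highest level of a gene was 1.10 to 1.87 times the lowest (median 1.33). Library 2 had the highest level for 33 genes and library 4 for Hmmr, Espl1 and Pif1. The share of all genes highest in library 2 was not computed, so nothing is read from that count. Double-positive thymocyte markers moved with library 3: summed over the 10 markers, they stood at 1384 CPM in its cells with at least 10 summed member UMIs, and at 124, 145.6 and 264.6 CPM in such cells of libraries 1, 2 and 4. A cell was counted as carrying these markers with at least 3 UMIs over 7 of them, among them Rag1, Rag2, Dntt and Cd8a. Such cells were 8 of the 20 high cells of library 3 (40%, 19.1 to 64.0) and held 24.7% of its member UMIs, against 1.87%, 1.19% and 5.29% in libraries 1, 2 and 4. Without them the summed level was 542 CPM in library 3 and 3251, 3707 and 2828 CPM in the others, so library 3 was still the low one.

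**Figure D1:**
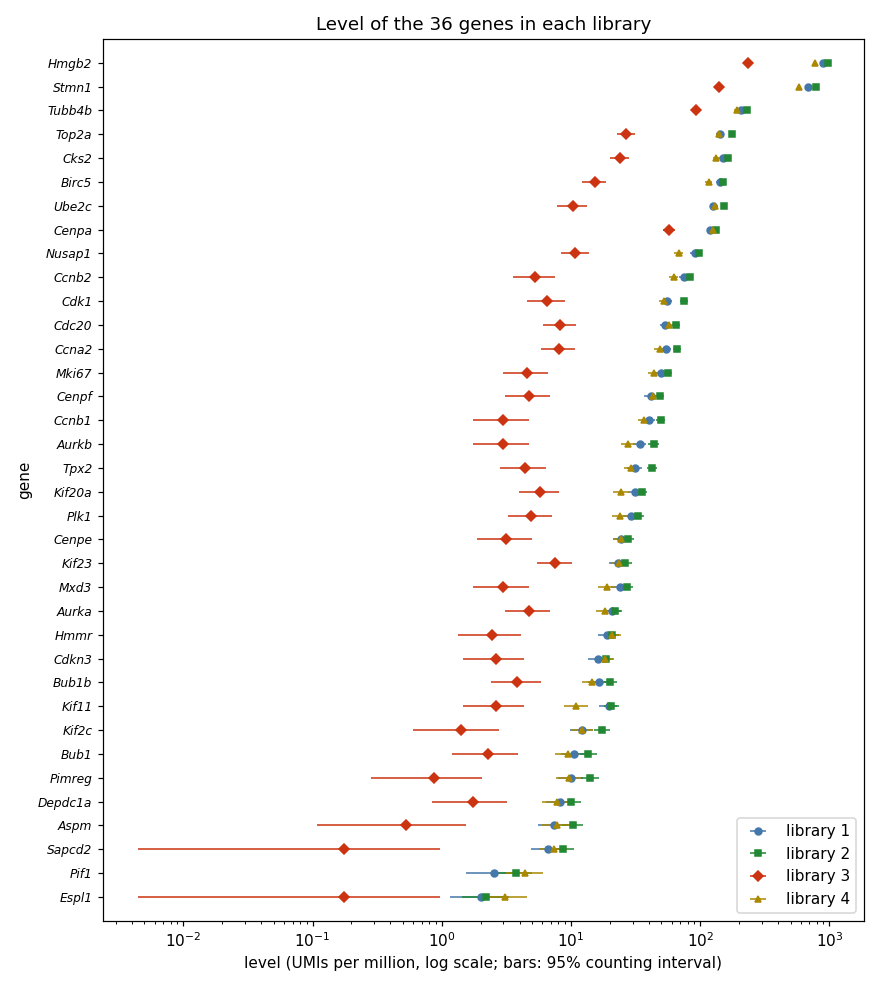
Level of each of the 36 genes (UMIs per 1000000 UMIs, log axis) in libraries 1 to 4, with 95% counting intervals as bars; genes run from the highest to the lowest pooled level. Library 3 lies left of the other libraries for every gene, and Pif1, with 0 UMIs in library 3, has no point there.

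The cyclins and their partners showed this pattern in full. Ccnb1 and Ccnb2, the B cyclins that drive entry into mitosis, stood at 40.0, 49.5, 2.97 and 37.0 CPM and at 74.9, 82.8, 5.25 and 62.3 CPM in libraries 1 to 4. Cdk1, the kinase they activate, had 55.5, 75.3, 6.47 and 52.9 CPM, and Ccna2, the cyclin of S phase and G2, had 54.1, 66.7, 8.05 and 48.8 CPM. Cks2, a small subunit of the kinase complex, stood at 149.9, 164.3, 24.0 and 133.2 CPM, and Cdkn3, a phosphatase that acts on Cdk proteins, at 16.2, 18.5, 2.62 and 18.2 CPM. In each of these 6 genes the library 3 value was well below every other.

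Among the mitotic kinases, Plk1, which acts at centrosomes and kinetochores, had 29.0, 33.1, 4.90 and 24.1 CPM in libraries 1 to 4. Aurka, the kinase of the spindle poles, had 20.9, 22.0, 4.72 and 18.4 CPM, and Aurkb, the kinase of the chromosomal passenger complex, 34.0, 43.6, 2.97 and 27.8 CPM. Birc5 (survivin), a partner of Aurkb in that complex, stood at 141.8, 150.3, 15.2 and 116.7 CPM. The lowest of libraries 1, 2 and 4 over library 3 was 9.35-fold for Aurkb and 3.91-fold for Aurka. Bub1 and Bub1b, kinase and pseudokinase of the spindle checkpoint, were counted at 10.5, 13.5, 2.27 and 9.46 CPM and at 16.3, 20.04, 3.85 and 14.6 CPM. The kinetochore genes Cenpe, a motor, and Cenpf stood at 24.6, 27.8, 3.15 and 24.4 CPM and at 41.3, 48.5, 4.72 and 42.9 CPM. Cenpa, the histone H3 variant of centromeres, kept more of its level in library 3, with 119.9, 132.4, 57.4 and 124.9 CPM (2.09-fold).

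Of the spindle proteins, Tpx2, which brings Aurka to the spindle, had 31.1, 42.3, 4.37 and 29.3 CPM in libraries 1 to 4. Nusap1, which bundles microtubules, had 90.6, 97.5, 10.8 and 68.2 CPM, and Hmmr, a protein that binds spindle microtubules, 19.1, 20.7, 2.45 and 20.96 CPM. The kinesins Kif11 (spindle bipolarity), Kif2c (microtubule depolymerisation), Kif20a and Kif23 (both cytokinesis) lay between 11.02 and 35.4 CPM in libraries 1, 2 and 4 and between 1.40 and 7.52 CPM in library 3. Kif11 had the widest range over libraries 1, 2 and 4, with 19.5, 20.6 and 11.02 CPM (1.87-fold). Aspm, a spindle pole protein, had 7.35, 10.4 and 7.79 CPM there and 3 UMIs in library 3. Tubb4b, a beta tubulin, and Stmn1, which destabilises microtubules, are also made by cells that do not divide. They stood at 205.1, 228.8, 92.3 and 192.9 CPM and at 681.6, 781.7, 140.4 and 583 CPM.

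Cdc20 and Ube2c serve the anaphase-promoting complex, which ends mitosis by degrading cyclin B. Cdc20, its activator, had 53.5, 65.5, 8.22 and 57.4 CPM and Ube2c, its ubiquitin-conjugating enzyme, 126.5, 151.7, 10.3 and 130.1 CPM in libraries 1 to 4. Espl1 (separase), which cuts cohesin at anaphase, was sparse, with 16, 25, 1 and 26 UMIs. Top2a, which untangles sister chromatids, had 141.8, 174.9, 26.8 and 140.1 CPM, Mki67, the coat protein of mitotic chromosomes, 49.4, 55.9, 4.55 and 44.1 CPM, and Hmgb2, a chromatin protein, 899.1, 973.2, 233 and 777.8 CPM. In all 6 of these genes library 3 was the low library. Mxd3, a MAX-binding transcription factor, stood at 23.8, 27.1, 2.97 and 19.0 CPM. Pif1, a DNA helicase, gave 20, 42, 0 and 37 UMIs, and the exact interval of the 0 reaches 0.645 CPM. Depdc1a, Pimreg and Sapcd2 gave 253, 323 and 212 UMIs in all libraries together, of which 10, 5 and 1 were in library 3.

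Most of the 36 transcripts were rare outside cells that carried the other members. Where the other 35 genes summed to at least 10 UMIs, Top2a was found in 66.9% of cells, Birc5 in 60.5% and Bub1 in 25.6%. Where they summed to 0, Top2a was found in 1.49% of cells and Birc5 in 1.69%, and Bub1, Depdc1a, Sapcd2, Espl1 and Pif1 in none of 1980, which allows a share of up to 0.186% (exact interval). In all, 26 genes had a share above 0 and no higher than 1.69% in the 1981 to 2014 cells with 0 UMIs of the others. Depth differed between these cells, with a median of 8870 UMIs per cell for at least 10 UMIs of the other members of Bub1 and 2506 for 0. Shares this low cannot be told apart from free RNA in the droplets. The 5 exceptions in cells with 0 UMIs of the others were Hmgb2 (35.1% of 3049 cells), Tubb4b (21.1% of 2509), Stmn1 (18.6% of 2432), Cenpa (13.1% of 2279) and Cks2 (4.26% of 2068). Cenpa stood at 323.2 CPM in cells with at least 10 UMIs of the others and at 53.4 CPM in those with 0.

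Across the 869 cells with at least 10 summed UMIs, the 630 pairs of members had a Pearson r of 0.0412 to 0.801 (median 0.461), computed on log2 of counts per 10000 plus 1. The closest pairs were Ccnb2 with Cenpa (0.801), Top2a with Nusap1 (0.775), Birc5 with Hmgb2 (0.773) and Ccnb1 with Cdc20 (0.772). These cells share 4 libraries and differ in depth, and the values are given as a description. Outside the 36, the genes most like the summed level across all 8273 cells were Pclaf (r = 0.586), a partner of PCNA, Cdca8 (0.559), which sits with Aurkb and Birc5 in the passenger complex, Cdca3 (0.548), Lockd (0.534), Racgap1 (0.522), a cytokinesis protein, and Rrm2 (0.519), a ribonucleotide reductase subunit. Next came Hist1h2ap (0.512), Cks1b (0.509), Asf1b (0.503) and Kif22 (0.498). Within libraries 1, 2 and 4 these 10 genes had r between 0.462 and 0.648, and within library 3 between 0.0945 and 0.232.

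The cells outside the G1 table carried most of the mitotic transcripts in libraries 1, 2 and 4, but not in library 3. How phases were assigned is not stated in the sources used here, and phase calls commonly read genes of this kind, so the split describes the authors' table and tests nothing. Outside cells held 69888 of the 96222 member UMIs (72.6%), while making up 12.6% of cells, and the share of member UMIs outside was 75.8%, 74.3%, 41.7% and 71.5% in libraries 1 to 4. The share of cells outside was 12.2% at 0 summed UMIs, 8.11% at 1 or 2, 5.48% at 3 to 5, 3.31% (1.77 to 5.59) at 6 to 10, 7.14% at 11 to 25, 26.1% (19.5 to 33.6) at 26 to 60 and 84.9% (81.1 to 88.2) over 60. The share was lowest between 6 and 10 UMIs and highest over 60, and cells over 60 held 75.8% of member UMIs. In libraries 1, 2 and 4 the share over 60 was 86.2%, 84.3% and 85.0%, and in library 3, 9 of 11 such cells were outside. Of the cells inside it, 452 had at least 10 summed UMIs, 150 had at least 30 and 21 had at least 100, up to 187 in 1 cell.

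**Figure D2:**
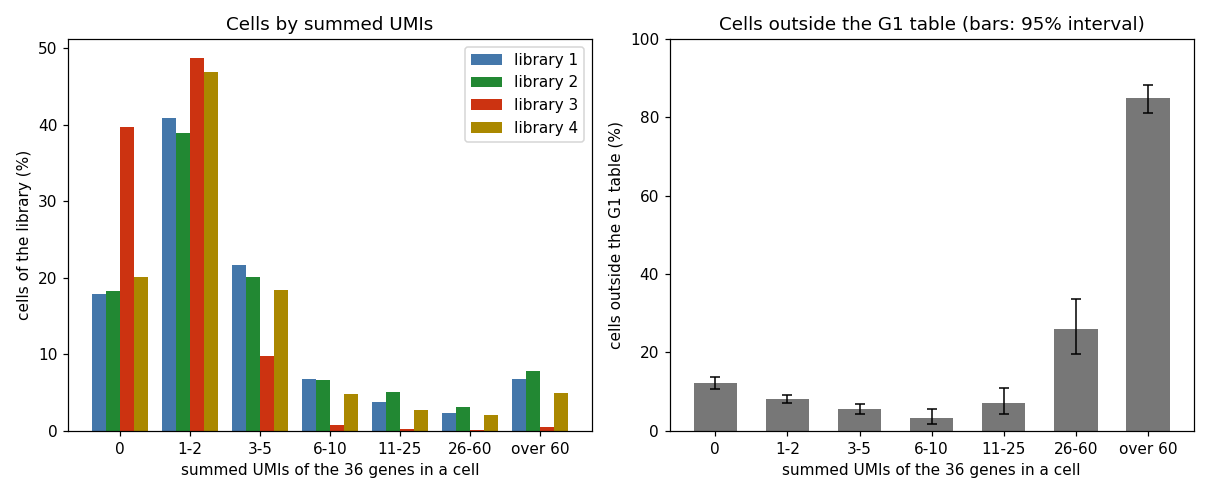
Left, percent of the cells of each library in 7 bins of summed UMIs of the 36 genes; right, percent of the cells of each bin that are outside the G1 table, with exact 95% intervals. Library 3 has 39.7% of its cells at 0 UMIs, and 84.9% of the cells over 60 UMIs are outside the G1 table.

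Not every outside cell was rich in these transcripts. Of the 1042 outside cells, 417 (40.0%) had at least 10 summed UMIs and 535 (51.3%) had fewer than 3. In libraries 1, 2, 3 and 4 the outside cells with at least 10 numbered 104, 193, 9 and 111, so 89.7% of the outside cells of library 3 had fewer than 3. The 535 cells had a median of 1928 UMIs per cell and 4.60% mitochondrial UMIs, against 2.24% mitochondrial UMIs in cells inside the table, and 4 of them carried double-positive markers. The part of depth and of mitochondrial transcripts in the authors' split was not tested.

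Gene by gene, all 34 members with at least 100 UMIs were at least 2-fold higher outside than inside the G1 table, where 5.35% of the 9279 genes tested were higher and 0.97% were lower by that fold. Because the split may have used these genes, nothing is read from that count. Ratios of CPM, taken within libraries and combined by the Mantel-Haenszel method, ran from 6.998-fold for Tubb4b to 65.2-fold for Plk1, with a median of 33.8-fold. Plk1 stood at 140.9 CPM outside and 2.02 CPM inside (log2 interval 5.63 to 6.42), Ube2c at 652.7 and 9.52 CPM (62.5-fold), Depdc1a at 42.6 and 0.685 CPM (58.2-fold) and Cenpf at 211.1 and 3.50 CPM (55.0-fold). In the 4 libraries Plk1 was at 140.2, 161, 46.5 and 146.2 CPM outside and at 1.74, 2.74, 0.769 and 2.26 CPM inside, with no overlap. Pif1 had 98 UMIs outside and 1 inside (420-fold, log2 interval 5.98 to 11.45) and Espl1 62 and 6, both under 100 UMIs in all.

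The smallest ratios belonged to the 5 genes most often found in cells with 0 UMIs of the other members. Stmn1 was at 2250 CPM outside and 270 CPM inside (7.68-fold), Hmgb2 at 3039 and 331 CPM (8.61-fold), Cenpa at 443.9 and 49.4 CPM (9.05-fold) and Cks2 at 563 and 42.8 CPM (12.2-fold). Tubb4b was at 674.7 CPM outside and 94.7 CPM inside. Within library 3 the ratio was 2.38-fold for Tubb4b and 2.35-fold for Cenpa, against at least 6.84-fold for every member in libraries 1, 2 and 4. All 36 genes were higher outside in libraries 1, 2 and 4, and 34 were in library 3, where Pif1 had no UMI and the only Sapcd2 UMI was inside. The erythroid markers stood at 20260 CPM in the outside cells of library 3 and at 0 to 1.58 CPM in those of the other libraries, and they enter the totals of those CPM values.

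**Figure D3:**
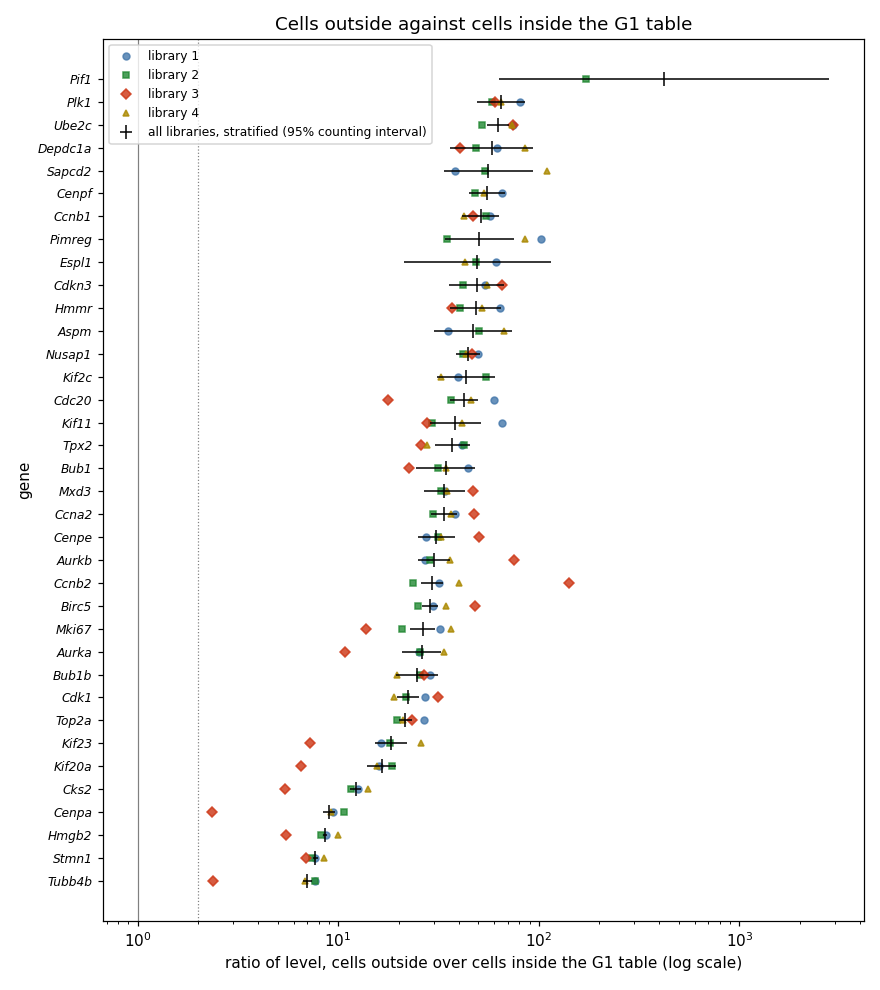
Ratio of level outside over inside the G1 table for each gene (log axis), with the stratified ratio and its 95% counting interval as a black bar and single libraries as points. A library with 0 UMIs on a side has no point. Nor has one with few UMIs over both sides, such as library 3 for Aspm, Pimreg and Kif2c. All 36 stratified ratios lie right of 2-fold (dotted line), and library 3 lies at 2.38-fold for Tubb4b and 2.35-fold for Cenpa.

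Other genes of the same process were also higher outside the G1 table. Of 71 further mitosis genes, 68 had at least 100 UMIs and 65 were at least 2-fold higher outside the G1 table, with a median log2 ratio of 3.57 against -0.04 over all genes tested. Among those with at least 100 UMIs, the largest ratios were those of Cdc25c, the phosphatase that switches on Cdk1 (31.3 CPM outside, 0.288 CPM inside, 116-fold), Ckap2l (40.9-fold), Knl1, a kinetochore scaffold (38.7-fold), Prc1, a midzone bundler (35.8-fold), Troap (31.6-fold), Ckap2 (29.3-fold), Cdca3 (29.0-fold) and Sgo2a, a shugoshin that protects cohesin (27.5-fold). The 3 that did not reach 2-fold were Pttg1 (securin, 1.64-fold), Smc4 (1.46-fold) and Zwint (1.26-fold). Of 37 S phase genes, 25 were higher, with a median log2 ratio of 1.27, and 1 was lower, Ung (23.8 CPM outside and 46.6 CPM inside). In the median the ratio was larger for mitotic than for S phase genes, a difference given without a test. The split may have used genes of both lists, so nothing is read from these counts.

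The order of the 36 genes along their own summed level was described over the 2666 cells with at least 3 summed UMIs. For each gene its position is the UMI-weighted median of the UMIs of the other 35 genes in the same cell: a gene found mostly in cells with few other mitotic transcripts has a low position. Leaving out a gene's own UMIs lowers the position of the most abundant genes. In cells over 60 summed UMIs, Hmgb2 made up 24.2% and Stmn1 18.5% of member UMIs. Depth also rose along the order, from a median of 3799 UMIs per cell at 3 to 5 summed UMIs to 10260 over 60. The part of either in the positions was not measured on its own. Stmn1 came first at 99 UMIs, followed by Hmgb2 at 121, Tubb4b at 161, Top2a at 171, Cenpa at 177, Cks2 at 181 and Mki67 at 182. Pif1 came last at 246, preceded by Ccnb1 at 239, Cdc20 at 233, Pimreg at 232, Ube2c at 226 and Cdkn3 at 225. Genes of 1 role did not always stand together: of the B cyclins Ccnb1 was late and Ccnb2 (202) stood in the middle. Of the genes that act at anaphase, Cdc20 and Ube2c were late and Espl1 (183) stood before them. Espl1 rests on 67 UMIs, with positions of 145, 192 and 183 in libraries 1, 2 and 4. In library 3 its position was 308, on 1 UMI. Cdk1 (190), Aurkb (197), Tpx2 (198) and Ccna2 (199) also stood in the middle. Plk1 (224), Hmmr (224), Cenpf (223) and Aurka (222) were late. The 10 other settings tried included cells thinned to equal depth, and positions counted without UMIs of Stmn1, Hmgb2 and Tubb4b. Under all of them, Top2a, Hmgb2, Tubb4b and Stmn1 were among the first 6, and Ccnb1, Pimreg and Pif1 among the last 6.

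The order was shared in part by the 3 libraries with many such cells. Spearman's rho between the positions in 2 libraries was 0.814 (libraries 1 and 2), 0.768 (1 and 4) and 0.747 (2 and 4) over 36 genes, and 0.567 to 0.643 with library 3, which gave 234 cells and 35 genes. In library 3 the position was 2 UMIs for Tubb4b and 3 UMIs for Cenpa, against at least 153 UMIs for both in the other libraries. Across the 36 genes, rarer ones stood later (rho = 0.479), and genes are not independent points. The share of cells over 60 summed UMIs that carried a gene followed its abundance almost fully (rho = 0.971), so detection alone gives the order of abundance. In cells with 3 to 5 summed UMIs, a UMI of Hmgb2 was found in 74.6%, of Stmn1 in 47.9%, of Tubb4b in 41.8%, of Cenpa in 28.6% and of Top2a in 4.85%. In cells with over 60, the shares were 100% for Hmgb2 and Stmn1, 96.9% for Tubb4b, 84.4% for Cenpa and 94.7% for Top2a. Cenpa thus had the larger share of the pair in the first bin and Top2a in the last. Between bins, Cenpa was at 22.6%, 24.2% and 37.3% for 6 to 10, 11 to 25 and 26 to 60 UMIs, while Top2a was at 9.16%, 27.4% and 71.4%. A UMI was found in at least 50% of cells from the first bin on for 1 gene, by 60 UMIs for 5 genes, only over 60 UMIs for 24 genes and in no bin for 7.

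**Figure D4:**
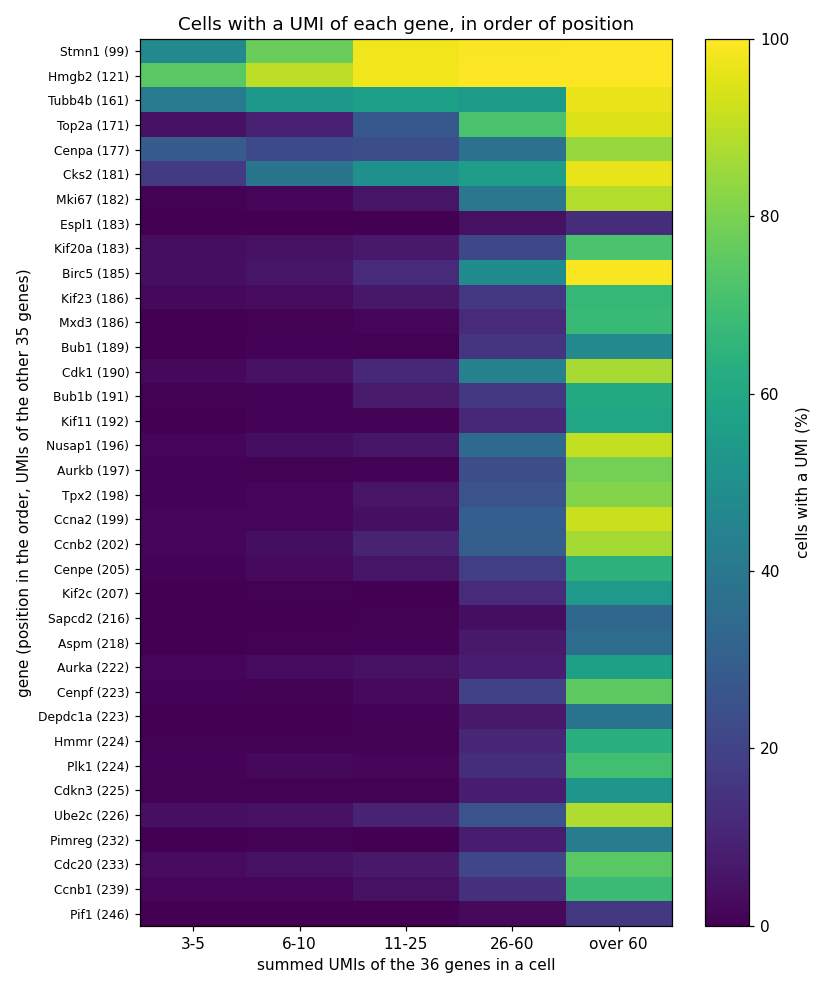
Percent of cells with a UMI of each gene (colour) in 5 bins of summed UMIs, with genes ordered from the lowest position at the top to the highest at the bottom. Hmgb2 and Stmn1 are found in most cells from 6 UMIs on, whereas Ccnb1 reaches 13.7% at 26 to 60 UMIs and 68.2% over 60.

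Among cells with at least 10 summed UMIs, those with high and with low levels of S phase genes carried different members. Within each library these cells were ranked by the summed CPM of 37 S phase genes, and the top 288 cells (S-high) were set against the bottom 288 (S-low), a split chosen after the data were seen. Median S phase level was 9217 CPM in S-high and 1330 CPM in S-low cells, while depth was alike, at a median of 8916 and 8630 UMIs per cell. Of the 36 genes, 15 were at least 2-fold lower in S-high cells and 2 at least 2-fold higher. Among the 34 genes with at least 100 UMIs, 14 were lower and 1 higher, against 4.6% lower and 6.39% higher of 9278 genes. The cells were picked by the summed UMIs of these same 36 genes, and most of the 9278 genes had no part in that. The shares are therefore not on a par, and nothing is read from the count. The summed UMIs of the 36 genes had a median of 77 in S-high and 43.5 in S-low cells, with 95, 74 and 54 in S-high and 36, 44 and 54.5 in S-low cells of libraries 1, 2 and 4, so library 4 showed no such difference. The shares of cells outside the G1 table were 51.4% and 49.0%.

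Pif1, Cdc20 and Ccnb1 had the lowest ratios. Cdc20 stood at 53.0 CPM in S-high and 384.5 CPM in S-low cells (log2 ratio -2.86, -3.11 to -2.61). In libraries 1, 2 and 4 its levels were 54.5, 49.0 and 54.0 CPM in S-high cells and 336.1, 370.9 and 482.6 CPM in S-low cells, with no overlap. Ccnb1 stood at 42.6 and 278.9 CPM (-2.71, -2.99 to -2.43), with 39.9, 44.1 and 43.8 CPM in S-high cells of libraries 1, 2 and 4 and 247.6, 295.2 and 297.5 CPM in S-low cells. Library 3 had 6 cells a side, too few to weigh. Cenpa (-2.44), Cdkn3 (-2.40), Ube2c (-2.17), Aspm (-1.99), Sapcd2 (-1.93), Ccnb2 (-1.83) and Cenpf (-1.80) followed. Pif1 gave 2 UMIs in S-high and 73 in S-low cells (-5.31, -7.33 to -3.28). Hmmr, Cenpe, Pimreg, Plk1 and Aurka also passed 2-fold, at -1.33, -1.25, -1.20, -1.12 and -1.10.

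Other members were as high or higher in S-high cells. Mxd3 stood at 101.4 CPM in S-high and 42.5 CPM in S-low cells (log2 ratio 1.26, 0.94 to 1.57), Stmn1 at 2726 and 1458 CPM (0.91, 0.85 to 0.96), Top2a at 579.3 and 401.1 CPM (0.54, 0.42 to 0.65) and Aurkb at 129.7 and 95.5 CPM (0.45, 0.21 to 0.68). Espl1 was also higher (1.22), at 30 and 12 UMIs. In libraries 1, 2 and 4 Top2a had a log2 ratio of 0.57, 0.83 and -0.06, so library 4 did not share the direction. Intervals of Bub1b, Mki67, Ccna2, Kif11, Nusap1, Cdk1 and Bub1 held 0. Libraries 1, 2 and 4 all gave the same sign for 28 genes, 24 lower and 4 higher in S-high cells, and Pif1 had 0 UMIs in S-high cells of library 4. The share of all genes with the same sign in these libraries was not computed, so nothing is read from that count. Cells with double-positive markers numbered 15 of the S-high and 16 of the S-low cells. The 6 genes latest in the order (Pif1, Ccnb1, Cdc20, Pimreg, Ube2c and Cdkn3) were all at least 2-fold lower in S-high cells, and of the 6 earliest only Cenpa was, with Cks2 just short of it. Both descriptions rest on largely the same cells.

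**Figure D5:**
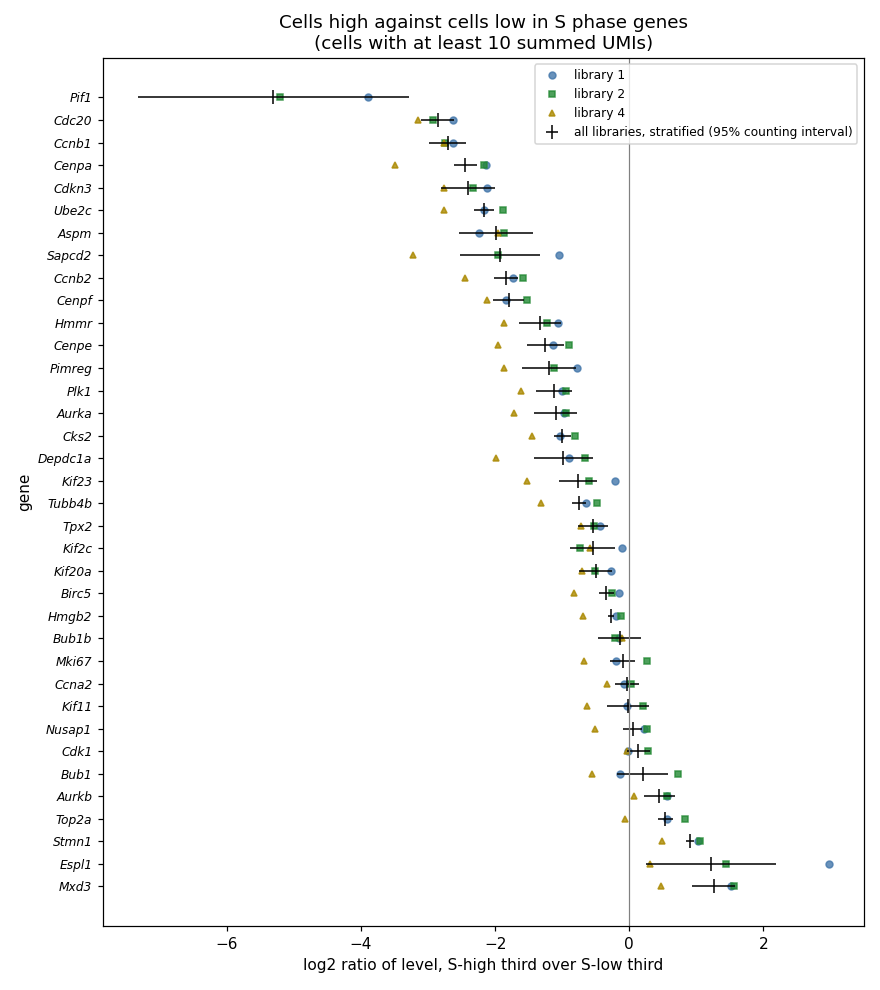
Log2 ratio of level in S-high over S-low cells (the top and bottom 288 cells by S phase level among cells with at least 10 summed UMIs), with the stratified ratio and its 95% counting interval as a black bar and libraries 1, 2 and 4 as points. Pif1, Cdc20 and Ccnb1 lie farthest left, and Mxd3, Espl1 and Stmn1 lie right of 0.

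Cells rich in mitotic transcripts also differed in genes outside mitosis. The 869 cells with at least 10 summed UMIs were set against the 1980 cells with 0. Median depth was 8870 and 2506 UMIs per cell, and of the 9279 genes tested 9.99% were at least 2-fold higher and 6.86% lower. S phase genes were higher in 35 of 37 cases (median log2 ratio 3.32, all genes -0.09) and none was lower. Rrm2 stood at 367.9 CPM in the high cells and 3.38 CPM in the cells with 0 (89.6-fold), and E2f8 and Exo1 gave 184 and 165 UMIs in the high cells and none in the cells with 0 summed UMIs, where the exact interval reaches 0.692 CPM. Of the other mitosis genes, 65 of 68 were higher (median 4.73). Among D cyclins and G1 checkpoint genes, 3 of 9 were higher: Cdkn2c (an inhibitor of the G1 kinases, 34.9-fold), E2f1 (19.4-fold) and Cdk4 (2.52-fold). Ccnd2 and Ccnd3, the D cyclins of T cells, stood at 511.3 and 192.6 CPM in the high cells and at 942.9 and 388 CPM in the cells with 0, just short of 2-fold lower.

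Interferon response genes were the list with the most members lower: 9 of 10 were at least 2-fold lower and none higher (median log2 ratio -1.61). Ifit1 stood at 36.3 CPM in the high cells and 197.5 CPM in the cells with 0 (log2 interval -2.77 to -2.36) and Oasl2 at 8.17 and 39.8 CPM. Library 3 gave 809 of the 1980 cells with 0 but 20 of the 869 high cells, so pooled levels can depart from the stratified ratio. Iigp1 and Ly6c1 are therefore given by library. Other genes, such as Rrm2 and Tpi1, are given as pooled levels only, though these depart as well, and folds printed for this comparison are stratified. Iigp1 stood at 5.99, 5.69, 27.3 and 8.20 CPM in the high cells of libraries 1 to 4 and at 35.5, 32.1, 155.5 and 47.7 CPM in the cells with 0, a stratified ratio of 0.174. Of 9 egress and late maturation genes, 5 were lower (median -1.16), led by Ly6c1 (stratified ratio 0.241), Gimap4 (234.1 and 760.8 CPM) and Gimap6 (241.3 and 711.9 CPM). Ly6c1 stood at 2.99, 2.98, 13.7 and 8.20 CPM in the high cells of libraries 1 to 4 and at 27.7, 10.5, 64.6 and 20.8 CPM in the cells with 0. S1pr1, a receptor that thymocytes need to leave the thymus, stood at 100.7 and 259.4 CPM. Of 10 quiescence genes, 3 were lower (median -0.88): Pik3ip1, an inhibitor of PI3 kinase (43.0 and 195.6 CPM), Btg1, an antiproliferative gene (671.7 and 2741 CPM), and Txnip (51.0 and 194.8 CPM). These 3 lists kept a median below -0.5 when cells were thinned to equal depth (-1.30, -0.74 and -0.51).

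Metabolic and biosynthetic genes moved less. Of 10 glycolysis genes, 4 were higher (median log2 ratio 0.71): Tpi1 (258.5 CPM in the high cells and 52.3 CPM in the cells with 0), Pgam1, Gapdh and Pgk1. Of 12 MYC target and ribosome biogenesis genes, Polr1b, Nop58 and Odc1 were higher (median 0.76), and after thinning to equal depth the median was 0.04. Of 11 IL-2 and STAT5 response genes, Osm (6.95 and 16.3 CPM) and Bcl2 (331.1 and 758.8 CPM), an inhibitor of apoptosis, were lower (median -0.49). Of 11 TCR and NF-kB response genes, Egr2 and Nr4a3 were lower (median -0.57).

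The high cells were checked against markers of the sorted cell type and of others. The 10 Treg markers summed to 3418, 4111, 1402 and 3648 CPM in the high cells of libraries 1 to 4 and to 4252, 4635, 3320 and 4156 CPM in the cells with 0, lower in the high cells of every library and most so in library 3. Of the 10, 2 genes, Foxp3 and Gpr83, were at least 2-fold lower. Foxp3 stood at 5.85 CPM (48 UMIs, 4.32 to 7.76) and 16.3 CPM (87 UMIs, 13.1 to 20.1). In libraries 1 to 4 it was at 8.55, 4.60, 4.55 and 5.13 CPM in the high cells and at 23.3, 15.7, 13.4 and 16.5 CPM in the cells with 0. The library 3 value in the high cells rests on 1 UMI, and its interval (0.115 to 25.4 CPM) covers that of the cells with 0 there (8.78 to 19.7 CPM), so the direction was the same in all 4 libraries but not resolved in library 3. Double-positive markers were carried by 35 of the 869 high cells (4.03%), and 5 of 9 such markers were higher, led by Dntt (9.86-fold, stratified) and Arpp21 (4.90-fold). Without library 3, whose 20 high cells gave 58-fold for Dntt, 3 of 9 were higher, with Dntt at 4.04-fold and Arpp21 at 2.16-fold. Summed, these markers stood at 124, 145.6, 1384 and 264.6 CPM in the high cells of libraries 1 to 4 and at 150.7, 109.7, 160.2 and 180.2 CPM in the cells with 0, so library 1 went the other way. The NK, NKT and gamma delta list summed to 293 CPM in the high cells and 89.5 CPM in the cells with 0, chiefly Nkg7 (218.8 and 50.5 CPM). Of its 4 genes with at least 100 UMIs, 2 were at least 2-fold higher. These were Gzma (51 and 3 UMIs, 11.8-fold, stratified) and Nkg7 (3.19-fold, stratified). The other 2, Xcl1 and Ccl5, did not reach 2-fold. Only 1, 2 and 1 markers of the B cell, myeloid and thymic epithelial lists had at least 100 UMIs, and none of these passed 2-fold. Below that number, H2-Aa gave 15 UMIs in the high cells and 2 in the cells with 0, H2-Ab1 13 and 3, Tyrobp 8 and 1, Fcer1g 5 and 0, and Krt8 0 and 6. Of 4 erythroid markers with at least 100 UMIs, Hbb-bt was higher. It had 66 UMIs in the high cells, all from library 2, and 8 in the cells with 0. Hba-a1 was lower, at 0 and 22 UMIs. Of these 22, 21 came from library 3, whose 20 high cells are too few to weigh. Over the 10 lists that are not cell type markers, the counts of 110 genes higher and 21 lower were the same without cells carrying double-positive markers, and the part of the other markers in these differences was not tested. Some values could hold reads of a neighbouring gene: 6 of the 36 genes overlap another annotated gene on the same strand and 13 on the opposite strand, among them Ube2c, Cdc20, Ccna2 and Kif20a.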

How the data were processed

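Single cells of 4 samples were measured, 1 per genotype. The authors deposited 2 tables: UMI counts (8273 cells, 27998 genes) and log2 values (7231 cells, 9571 genes). The tools, per the submitters' processing notes, were Cell Ranger 2.0.2, CASAVA 2.20 and R 3.4.1, with mm10 as the build. The cell filter, the phase calls and the strand setting of counting are not given in the sources used here. Tested against the counts, each deposited log2 value was log2 of 1 plus the count over a factor of the cell, with factors of 0.168 to 5.68 and relative deviations of at most 1.13e-14. No label ties a barcode suffix to a sample, so all 8273 columns stayed unassigned, and the suffixes served as 4 libraries.

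The 36 genes and all lists were chosen with earlier results of these data known. Symbols came from GENCODE M21 (27645 of the identifiers matched). From the counts, CPM were summed per group of cells. Ratios were Mantel-Haenszel ratios over libraries, tested on simulated data. A gene was called at 2-fold or more with at least 100 UMIs over all cells. Named besides the 36 are up to 8 further mitosis genes with the largest ratio outside over inside the G1 table, 10 genes most like the summed level (at least 200 UMIs), up to 3 genes per further list with the largest ratio, and markers that bear on a value. Names outside this rule (Pttg1, Smc4, Zwint, Ccnd2, Ccnd3, S1pr1, Ung, Pgk1) were chosen after their values were seen. In thinning, 1811 UMIs were drawn per cell, the 10th percentile, which kept 7447 cells. Scrublet, run in scanpy 1.11.5, predicted 42 doublets (0.508%), too few to have worked, so doublets were kept and its calls served as an alternative. The other alternatives were dropping cells under 500 genes or over 10% mitochondrial UMIs, dropping cells with double-positive markers, scaling, weighting of cells, thresholds, thinning and leaving out each library. Scripts ran on matplotlib 3.10.9, pandas 2.3.3, scipy 1.17.1, numpy 2.4.6 and Python 3.11.15.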

Additional observations from a re-analysis of the deposited data

How the results depend on the processing

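The 34 of 34 members at least 2-fold higher outside the G1 table stayed 34 under every alternative that kept the minimum of UMIs. The count also stayed 34 without each library (34 to 34). Without that minimum, Espl1 and Pif1 were at least 2-fold higher as well. The order correlated with the one reported at rho = 0.961 to 0.996 without each library. Genes of the 10 lists that are not cell type markers that were higher in cells with at least 10 summed UMIs numbered 107 to 111, and lower 19 to 23, without each library. Members at least 2-fold lower in S-high cells numbered 12 to 17 without each library, 20 with at least 30 summed UMIs and 14 with all cells split at the median S phase level. Levels and shares by library depend on their definition, with library 3 lowest each time. In libraries 1 to 4 the summed level was 5043, 5539, 1065 and 4406 CPM over UMIs without mitochondrial and ribosomal protein genes, 1488, 1732, 239.8 and 1376 CPM without Stmn1, Hmgb2 and Tubb4b, and 1725, 2162, 481.1 and 1628 CPM as a mean over cells. It was 3679 CPM in library 2 without predicted doublets, and 542 and 2828 CPM in libraries 3 and 4 without cells carrying double-positive markers. The share of cells with at least 3 summed UMIs was 11.75%, 15.99%, 1.375% and 10.94% without those 3 genes and 19.91%, 22.92%, 4.809% and 17.94% after thinning. It was 58.05%, 59.75%, 27.49% and 52.37% with at least 2 UMIs and 23.43%, 26.1%, 2.651% and 17.33% with at least 5. The CHR letters were in 14 of 29 windows when only bases before the start were searched, against 22. The other 72 values of these main results moved by less than their counting interval or 1.5 times, and the causes of the moves were not tested. Among ratios of single genes and medians of lists, 80 values moved past such limits and 514 did not. The log2 ratio outside over inside the G1 table ran from 2.36 to 3.30 for Cenpa (main setting 3.18). For Tubb4b it ran from 2.07 to 2.90 (main setting 2.81). No value that was at least 1.5-fold from no change reversed its direction. Smaller ones could: the median log2 ratio of D cyclins and G1 checkpoint genes was 0.01 with all libraries and -0.22 without library 3. No paired analysis was possible because the columns carry no replicate number and each genotype has 1 sample. With 1 library per suffix and 48 Foxp3 UMIs in 869 cells, counting error limits single genes, and spread between animals cannot be seen.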
